A study of Mus musculus with 3 samples.

Results

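The genes that release calcium from the sarcoplasmic reticulum and pump it back were followed through nuclei of embryonic mouse hearts. The set is 10 genes, chosen by symbol with earlier results of these data known, of the 27998 genes in the deposited tables. Ryr2, Casq2, Asph and Jph2 belong to the release site, Atp2a2, Pln and Sln to the uptake pump, and Itpr1, Itpr2 and Itpr3 are the inositol trisphosphate (IP3) receptor genes. All 10 symbols were found. Whole hearts of embryonic day 9.5 were profiled by single-nucleus RNA sequencing in 3 genotypes of Ncx1, an alias of Slc8a1, whose product exchanges sodium for calcium across the cardiomyocyte membrane. The genotypes were Ncx1+/+ (wild type), Ncx1+/- (heterozygous) and Ncx1-/- (homozygous mutant). Each library came from 5 flash-frozen hearts pooled by genotype, with 1 library per genotype. Genotype, library and the pooled hearts therefore cannot be told apart, no test between genotypes was possible, and no difference between genotypes has a replicate check. How the allele was made and which part of the gene it lacks are not given in the labels.

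In heart muscle, calcium that enters the cell opens the ryanodine receptor RYR2 in the sarcoplasmic reticulum, and the calcium released through it drives contraction. The pump SERCA2, encoded by Atp2a2, returns the calcium to the store, and the sodium-calcium exchanger moves out what entered. IP3 receptors are a separate class of store release channels, widely used outside muscle and present in embryonic cardiomyocytes.

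The Ncx1+/+, Ncx1+/- and Ncx1-/- libraries held 13805, 12563 and 12525 barcodes with median counts of 3863, 3460 and 3665 unique molecular identifiers (UMIs), and all values below follow this order. After filtering, 35051 nuclei were clustered without the member genes and named from marker lists. They include 25833 cardiomyocyte-like nuclei (8836, 8205 and 8792) and 5747 endothelial and endocardial-like nuclei, called endocardial below (2239, 1972 and 1536). Levels are UMIs summed over a class and put on the counts-per-million scale (CPM) of that class. Brackets give exact 95% counting intervals, which do not cover differences between hearts or libraries. Slc8a1 checked the labels: cardiomyocyte nuclei carried 16705, 8797 and 1273 CPM, so Ncx1-/- was at 0.0762 and Ncx1+/- at 0.527 of the wild-type level. The Ncx1-/- library also differed in Malat1, a nuclear RNA that made up 4.69%, 4.94% and 8.40% of all UMIs. Barcodes shared between pairs of libraries numbered 40 to 57.

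The RefSeq table used here (build GRCm38.p6) holds a start site for 6 of the 10 genes, Ryr2, Pln, Casq2, Jph2, Itpr2 and Itpr3. The 250 bases before the start are printed for 5 of them because their levels divide most clearly: Ryr2 and Jph2 were cardiomyocyte genes, Pln a ventricular one, and Itpr2 and Itpr3 endocardial ones. Each runs 5′ to 3′ on the strand of its gene, and capitals mark matches to the motifs named after them.
Ryr2, chr13:12106946-12107195, minus strand: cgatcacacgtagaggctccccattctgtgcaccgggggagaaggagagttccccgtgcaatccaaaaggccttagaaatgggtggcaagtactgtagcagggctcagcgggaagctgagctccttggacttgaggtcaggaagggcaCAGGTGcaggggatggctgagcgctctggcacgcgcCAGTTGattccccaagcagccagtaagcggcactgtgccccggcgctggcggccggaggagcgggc
Jph2, chr2:163397994-163398243, minus strand: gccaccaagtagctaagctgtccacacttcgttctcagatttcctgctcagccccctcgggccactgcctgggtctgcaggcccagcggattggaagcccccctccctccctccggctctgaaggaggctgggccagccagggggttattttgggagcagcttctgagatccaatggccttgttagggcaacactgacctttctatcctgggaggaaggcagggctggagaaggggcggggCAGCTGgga
Pln, chr10:53337436-53337685, plus strand: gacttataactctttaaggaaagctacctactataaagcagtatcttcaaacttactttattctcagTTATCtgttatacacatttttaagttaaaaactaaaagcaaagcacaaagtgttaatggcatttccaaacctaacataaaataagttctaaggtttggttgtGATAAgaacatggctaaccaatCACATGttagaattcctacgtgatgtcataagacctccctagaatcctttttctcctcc
Itpr2, chr6:146502224-146502473, minus strand: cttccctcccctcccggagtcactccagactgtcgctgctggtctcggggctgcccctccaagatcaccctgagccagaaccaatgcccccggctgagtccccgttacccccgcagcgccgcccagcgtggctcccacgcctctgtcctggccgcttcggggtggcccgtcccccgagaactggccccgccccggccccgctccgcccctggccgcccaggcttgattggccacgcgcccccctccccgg
Itpr3, chr17:27057054-27057303, plus strand: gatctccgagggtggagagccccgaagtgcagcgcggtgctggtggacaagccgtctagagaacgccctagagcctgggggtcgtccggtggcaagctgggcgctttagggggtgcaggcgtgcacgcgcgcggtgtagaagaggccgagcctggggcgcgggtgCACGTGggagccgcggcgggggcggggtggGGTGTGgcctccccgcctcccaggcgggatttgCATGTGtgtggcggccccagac

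Both strands were searched for the E-box CANNTG and for the GATA motif GATAA. They were also searched for the T-box letters GGTGTG and, of TEAD factors, the letters CATTCC. The NKX2 motif was searched as TNAAGTG and the ETS motif as CCGGAAG, and the MEF2 motif is given by name alone. Of 32841 promoters of the same length, 66.2% hold the E-box, 3.20% the MEF2, 22.6% the GATA, 16.3% the T-box, 12.6% the TEAD, 10.1% the NKX2 and 6.91% the ETS letters. Ryr2 holds 2 E-boxes, which start 102 and 66 bases before the start site, and Jph2 holds 1 E-box. Pln holds 1 E-box and 2 GATA matches, 1 on each strand. Itpr3 holds 2 E-boxes and 1 T-box match, and Itpr2 holds none of these letters in this window. Base composition varied over the 6 genes with an entry: Pln is 32.8% G and C with 1 CpG, against 72.0% and 25 CpGs in Itpr3, 74.4% and 22 in Itpr2, 63.2% and 14 in Ryr2, 62.0% and 5 in Jph2, and 41.6% and 5 in Casq2, a cardiomyocyte gene whose bases are not printed. Since the printed genes were chosen for their levels, no relation between level and composition is read from them. The medians over all promoters are 52.4% and 6. A match describes the letters only and does not show that a factor binds there.

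Ryr2 (ENSMUSG00000021313, minus strand, chromosome 13 from 11553102 to 12106945 in mm10) was the release gene with the widest detection. Its level in cardiomyocyte nuclei was 5707, 5694 and 5557 CPM. The ratio of Ncx1-/- to wild type was 0.974 [0.968-0.980] and that to Ncx1+/- 0.976 [0.970-0.982]. Summed over the class, the 3 libraries were thus close to level for Ryr2. The exchanger gene was at 0.0762 of wild type in the same Ncx1-/- nuclei. By named chamber the Ryr2 ratio to wild type ran from 0.782 in outflow tract to 1.19 in atrioventricular canal nuclei. It was below 1 in every named chamber but the last, so the sum does not stand for each chamber. After each nucleus was thinned to 1500 UMIs, Ryr2 was detected in 96.8%, 97.2% and 97.8% of cardiomyocyte nuclei, against 96.9%, 97.1% and 98.2% unthinned, with 351, 333 and 197 shallower nuclei left out. In endocardial nuclei, which should lack the gene, the thinned shares were 9.74%, 11.5% and 10.4% and the unthinned 24.3%, 24.5% and 21.8%. Median depths were 3677, 3353 and 3556 UMIs in cardiomyocyte nuclei and 4801, 4018.5 and 3517 UMIs in endocardial nuclei.

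Casq2 encodes a calsequestrin, a calcium buffer inside the store. It was scarce, with 223 UMIs over all cardiomyocyte nuclei, and lay at 2.86, 2.44 and 1.53 CPM, lowest in Ncx1-/-. The ratio of Ncx1-/- to wild type was 0.533 [0.374-0.754] and that to Ncx1+/- 0.625 [0.429-0.905], so Casq2 was lower than in both by more than the 1.5-fold mark used below. By chamber, the difference was widest in atrial nuclei, at 3.97, 1.17 and 0.175 CPM, from 23 UMIs in all. In ventricular wall nuclei, where Casq2 had the most UMIs (107), it lay at 2.76, 2.56 and 1.62 CPM, a ratio to wild type of 0.587 [0.351-0.964]. In atrioventricular canal nuclei the 3 libraries were close, at 2.04, 1.75 and 1.85 CPM from 39 UMIs. The other calsequestrin gene, Casq1, is not a member and was far more abundant in cardiomyocyte nuclei, at 61.9, 65.5 and 55.6 CPM. Its ratio of Ncx1-/- to wild type was 0.899 [0.844-0.956], so the Casq2 difference does not stand for calsequestrin RNA as a whole.

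Asph (minus strand, chromosome 4 from 9448069 to 9669344) encodes an aspartate hydroxylase and, from other promoters and splice forms, junctin and junctate, small proteins of the store membrane. UMI counts per gene do not divide these products. Cardiomyocyte nuclei carried 236, 257 and 309 CPM, higher in Ncx1-/- by 1.31 [1.27-1.35] against wild type and by 1.2 [1.17-1.24] against Ncx1+/-. Among 14 cardiomyocyte sub-clusters with at least 50 nuclei of each library, Ncx1-/- held the highest of the 3 levels in 12, and the counting interval of the ratio to wild type lay above 1 in 12 and below 1 in 0. Asph was thus higher in Ncx1-/- across most kinds of cardiomyocyte nuclei, with ratios from 0.785 to 1.52 over all 14. The sub-clusters are parts of the same 3 libraries, so they do not repeat the difference. The overlapping gene on the other strand, Clvs1, lay at 19.4, 18.1 and 18.6 CPM. The sources used here do not say whether the counting used strand.

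Jph2 encodes junctophilin, which holds the store membrane next to the cell membrane. Cardiomyocyte nuclei carried 258, 251 and 251 CPM, a Ncx1-/- to wild type ratio of 0.974 [0.945-1.00]. Its levels were the most even of the release genes across chambers too, from 247, 234 and 246 CPM in ventricular wall nuclei to 301, 283 and 289 CPM in outflow tract nuclei.

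Of the uptake genes, Atp2a2 (minus strand, chromosome 5 from 122453513 to 122502225) was close to level across genotypes, at 1147, 1191 and 1193 CPM in cardiomyocyte nuclei. The ratio of Ncx1-/- to wild type was 1.04 [1.03-1.06]. Pln encodes phospholamban, the inhibitor of the pump, and lies on the plus strand of chromosome 10 from 53337667 to 53345987. Its level was 61.5, 61.0 and 77.8 CPM, so it was higher in Ncx1-/- by 1.27 [1.2-1.34] against wild type and 1.28 [1.2-1.36] against Ncx1+/-, below the 1.5-fold mark. The 9 ventricular wall markers summed to 4210, 4249 and 5204 CPM in the same nuclei, also highest in Ncx1-/-, and their part in the Pln difference was not tested. Its neighbour on the other strand, Cep85l, moved the other way, at 118, 114 and 99.6 CPM. Sln, the gene of sarcolipin, another small inhibitor of the pump, gave 10 UMIs over all cardiomyocyte nuclei and cannot be compared at this depth.

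All 3 IP3 receptor genes were detected in cardiomyocyte nuclei, Itpr1 far more than the other two. Itpr1 lay at 397, 433 and 380 CPM, so Ncx1-/- was at 0.958 [0.935-0.981] of wild type and 0.88 [0.858-0.901] of Ncx1+/-. Itpr2 lay at 35.4, 30.2 and 32.9 CPM, and its Ncx1-/- to wild type ratio was 0.929 [0.856-1.01]. Itpr3 was the scarcest of them, at 3.58, 4.55 and 7.25 CPM from 505 UMIs. It was higher in Ncx1-/- by 2.02 [1.62-2.53] against wild type and by 1.59 [1.29-1.98] against Ncx1+/-.

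A mark was set to read these ratios against all genes: a difference of 1.5-fold or more from each of the other libraries, in 1 direction, with both counting intervals clear of 1, for genes with at least 100 UMIs. In Ncx1-/- cardiomyocyte nuclei 1 of 9 measured members, Itpr3, was past it higher, against 4.41% of 14093 measured genes. Another 1 of 9, Casq2, was past it lower, against 3.24%. In Ncx1+/- it was 0 of 9 in each direction, against 0.213% higher and 0.149% lower. The median log2 ratio of Ncx1-/- to wild type was -0.04 over the 9 members and -0.03 over all measured genes, so the set as a whole lay where the other genes did. Ncx1-/- held the highest Itpr3 level in 11 of 14 cardiomyocyte sub-clusters, from 7 to 78 UMIs each, and the lowest Casq2 level in 7, from 3 to 46 UMIs each. The 13 markers of endothelial nuclei, where Itpr3 had 5.80 to 8.15 times its cardiomyocyte level, summed to 143, 145 and 155 CPM in cardiomyocyte nuclei, with 0 of them at zero. Their part in the Itpr3 difference was not tested. Casq2 was no longer past the mark without the doublet filter or with the chambers weighted equally, where Itpr3 alone was.

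**Figure D1:**
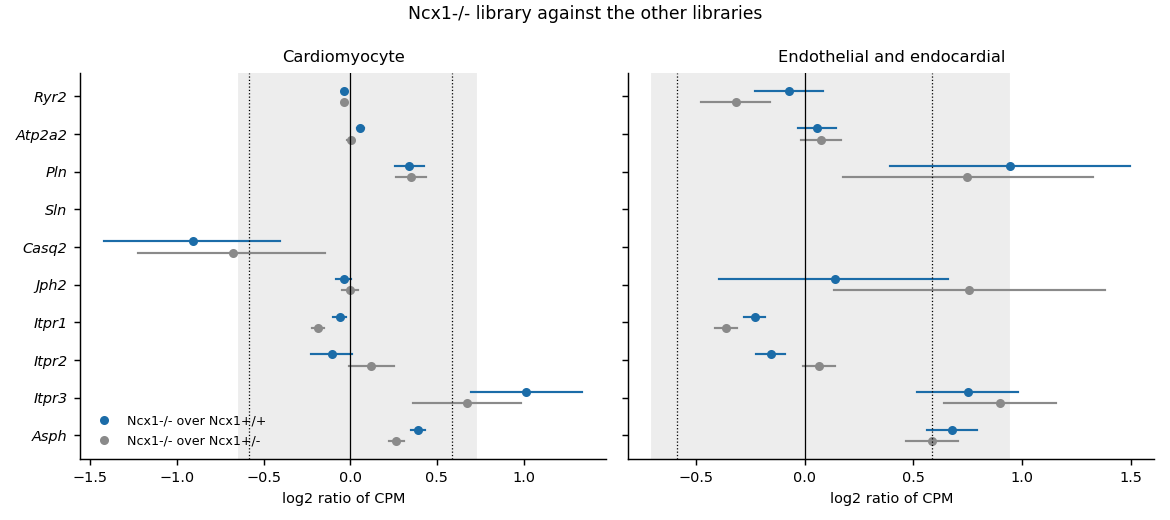
Log2 ratio of CPM between the Ncx1-/- library and Ncx1+/+ (blue) or Ncx1+/- (grey) for each gene in cardiomyocyte (left) and endocardial nuclei (right); lines are 95% exact counting intervals, dotted lines the 1.5-fold mark, and the grey band spans the 5th to 95th percentile of all measured genes for Ncx1-/- over Ncx1+/+. In cardiomyocyte nuclei Itpr3 lies at 2.02-fold and Casq2 at 0.533-fold, while Ryr2, Atp2a2 and Jph2 lie near 0 on this scale.

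Cardiomyocyte sub-clusters were named by chamber from markers that hold no member gene. There were 4237 atrial-like, 2142 outflow tract-like, 5580 atrioventricular canal-like, 11311 ventricular wall-like and 750 trabecular-like nuclei, with 1813 left unresolved. The clustering starts from a random order, and with 5 other starts the borders moved: trabecular-like nuclei of Ncx1-/- numbered 238 to 968, for example. Chamber values are from the first start, with the range over all 6 starts where a ratio is read. Different sub-clusters hold part of a chamber in different libraries: 1 atrial sub-cluster, led by Kctd16 and Kcnma1, held 1, 124 and 672 nuclei, and 1 atrioventricular canal sub-cluster, led by Lmo2 and Lhfpl3, held 408, 255 and 11. Chamber levels between genotypes therefore also compare different sub-clusters, and the sizes of the chambers are not compared. The summed markers that named the chambers lay lower in Ncx1-/- for the atrial nuclei (4648, 4384 and 3806 CPM), the atrioventricular canal nuclei (1938, 1759 and 1552 CPM) and the trabecular nuclei (4167, 4273 and 3002 CPM). They lay higher for the ventricular wall nuclei (5433, 5573 and 6639 CPM) and the outflow tract nuclei (3440, 3240 and 3790 CPM). Their part in the chamber ratios below was not tested.

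Release channel and pump were both highest in atrial nuclei. Ryr2 lay at 7883, 7733 and 6787 CPM there and was lowest in outflow tract nuclei, at 4186, 4292 and 3274 CPM. Atrial over outflow tract was 1.88, 1.80 and 2.07 in the 3 libraries, and these ends of the order held in all 18 combinations of library and start. Between them lay ventricular wall (6348, 6081 and 5704 CPM), trabecular (5675, 5512 and 4765 CPM) and atrioventricular canal nuclei (4477, 4901 and 5326 CPM). The last of these were below the trabecular nuclei in 2 libraries and above them in Ncx1-/-. Atp2a2 had the same ends, from 2058, 1953 and 1763 CPM in atrial to 669, 733 and 556 CPM in outflow tract nuclei, a ratio of 3.08, 2.67 and 3.17 that also kept its order in all 18. Its 3 middle chambers lay close together, between 1057 and 1179 CPM, and did not keep their order beyond counting error in more than 1 library.

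Pln and the pump it restrains were opposed in atrial nuclei, while outflow tract nuclei were low for both. Pln was highest in ventricular wall nuclei, at 95.1, 98.5 and 125 CPM, and lowest in atrial nuclei, at 16.6, 14.3 and 15.4 CPM. These ends held in all 18 combinations of library and start. Atrial nuclei were thus 5.74-, 6.88- and 8.11-fold lower, while their Atp2a2 was the highest of all chambers. Trabecular nuclei came second for Pln, at 70.3, 44.7 and 61.3 CPM. Outflow tract (26.3, 36.6 and 31.0 CPM) and atrioventricular canal nuclei (27.1, 27.0 and 32.1 CPM) were low, with overlapping counting intervals. Within the ventricular wall Pln varied among 6 sub-clusters from 47.4 to 183 CPM over the pooled libraries, lowest in the one led by Nell1 and Mab21l2 and highest in the one led by Tgfbr3 and Bmpr1b.

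The Pln ratio between Ncx1-/- and wild type varied among sub-clusters of the same chamber. In the ventricular wall sub-cluster led by Nell1 and Mab21l2 Pln lay at 35.1, 40.4 and 65.7 CPM, a ratio to wild type of 1.87 [1.5-2.34]. In the one led by Pde7b and Negr1, among the highest for Pln, it lay at 168, 171 and 155 CPM, a ratio of 0.922 [0.810-1.05]. Of 13 cardiomyocyte sub-clusters with enough UMIs, the interval of this ratio lay above 1 in 7 and below 1 in 0, and the ratios ran from 0.852 to 1.87. Differences between sub-clusters in this ratio were not tested.

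**Figure D2:**
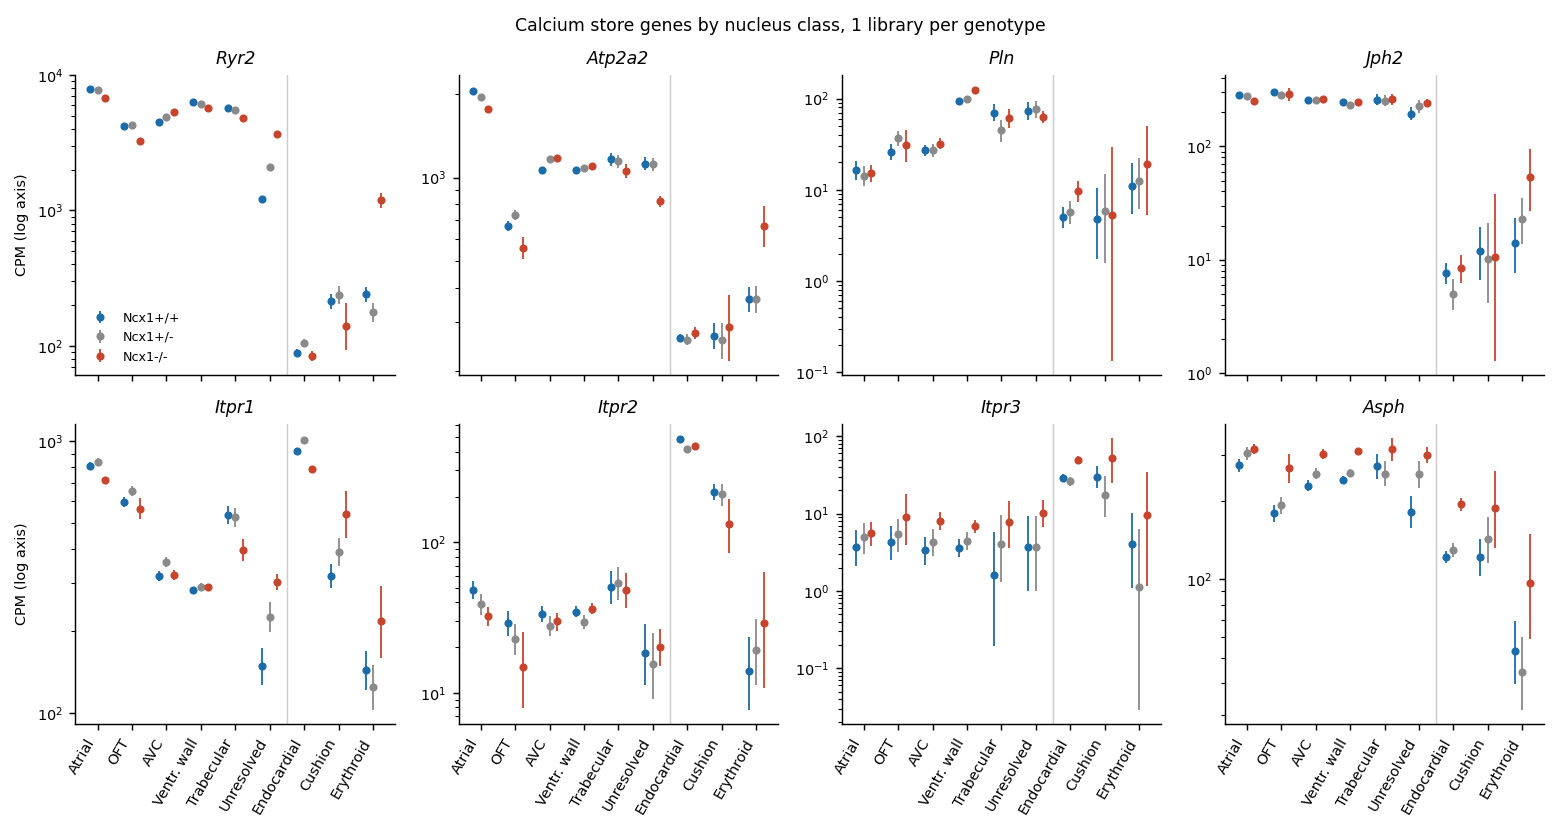
CPM (log axes) of 8 genes in each cardiomyocyte chamber and, right of the grey line, in other nucleus classes, with 1 point per library (blue Ncx1+/+, grey Ncx1+/-, red Ncx1-/-) and exact 95% Poisson intervals that cover counting error only. Ryr2 and Atp2a2 peak in atrial nuclei, Pln peaks in ventricular wall nuclei at 95.1 to 125 CPM, Itpr2 peaks in endocardial nuclei and Itpr3 in endocardial and cushion nuclei; the cushion point of Ncx1-/- rests on 58 nuclei.

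The IP3 receptor genes had chamber patterns of their own. Itpr1 was highest in atrial nuclei, at 811, 836 and 717 CPM, followed by outflow tract nuclei at 598, 654 and 564 CPM, and lowest in ventricular wall nuclei, at 283, 291 and 291 CPM. Atrial and ventricular wall nuclei were the ends in all 18 combinations of library and start. Outflow tract nuclei, the lowest for Ryr2 and Atp2a2, were thus the second highest for Itpr1. Itpr2 was highest in trabecular nuclei, at 50.3, 53.7 and 48.3 CPM (17 of 18 combinations), next to atrial nuclei at 48.1, 38.7 and 32.3 CPM, with overlapping counting intervals in each library. It was lowest in outflow tract nuclei, at 29.1, 22.8 and 14.9 CPM. Itpr3 showed no order of chambers beyond counting error between neighbours, with 1.60 to 9.18 CPM in the 15 chamber values. Asph was lowest in outflow tract nuclei, at 180, 193 and 267 CPM, and lay at 276, 306 and 317 CPM in atrial nuclei. The atrial sub-cluster led by Kctd16 and Kcnma1, mostly of Ncx1-/- nuclei, held Asph at 359 CPM over the pooled libraries. Its part in the atrial Asph levels was not tested.

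Within chambers, Ryr2 was lower in Ncx1-/- than in wild type except in the atrioventricular canal. The ratio was 0.861 [0.848-0.874] in atrial nuclei (0.855 to 0.871 over the 6 starts), 0.782 in outflow tract (0.781 to 0.835), 0.899 in ventricular wall (0.883 to 0.906) and 0.840 in trabecular nuclei (0.840 to 1.02). In atrioventricular canal nuclei it was 1.19 [1.17-1.21], from 1.10 to 1.22 over the starts. Of the 3 sub-clusters there with 50 nuclei of each library, 1 had a ratio below 1 (0.932) and the others lay at 1.06 and 1.23. The sub-cluster of that chamber nearly absent from Ncx1-/-, led by Lmo2, had the lowest Ryr2 of the 4, at 3382 CPM over the pooled libraries, and its part in the chamber ratio was not tested. Over 14 cardiomyocyte sub-clusters the interval lay below 1 in 9 and above 1 in 2. None of the named chambers or of these 14 sub-clusters reached 1.5-fold. The unresolved nuclei have no chamber ratio here, as they mix sub-clusters of unlike Ryr2. One at 951 CPM over the pooled libraries held 466, 377 and 266 nuclei, and one at 4540 CPM held 23, 114 and 567. Their summed Ryr2 is therefore weighted toward the higher level in Ncx1-/-. The near-level total of Ryr2 in cardiomyocyte nuclei is thus a sum over chambers and sub-clusters that differ in ratio, level and share of nuclei.

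Endocardial nuclei carried more RNA of all 3 IP3 receptor genes than cardiomyocyte nuclei did, relative to their totals. Itpr1 lay at 922, 1009 and 786 CPM in them, Itpr2 at 483, 414 and 434 CPM and Itpr3 at 29.2, 26.4 and 49.1 CPM. Against cardiomyocyte nuclei of the same library, Itpr1 was 2.32, 2.33 and 2.07 times higher, Itpr2 13.6, 13.7 and 13.2 times and Itpr3 8.15, 5.80 and 6.78 times. After thinning to 1500 UMIs, Itpr2 was detected in 46.0%, 41.7% and 41.7% of endocardial nuclei (75%, 68.1% and 66.7% unthinned) and in 5.11%, 4.14% and 4.90% of cardiomyocyte nuclei (11.7%, 9.57% and 11.0% unthinned). That left out 52, 78 and 52 endocardial nuclei.

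The muscle release and uptake genes were low in endocardial nuclei, at levels to be read against free RNA. Ryr2 lay at 89.1, 106 and 84.9 CPM there, 1.56%, 1.86% and 1.53% of its cardiomyocyte level, and Jph2 at 2.94%, 1.97% and 3.32%. Pln lay at 8.18%, 9.45% and 12.5% of its cardiomyocyte level. The 15 cardiomyocyte markers had a median of 9.45%, 9.35% and 11.9% of theirs, with 0 at zero and a range of 1.22% to 43.3%, and Ryr2, Jph2 and Pln, below or near these medians, are read as background. Atp2a2 was at 23.0%, 21.8% and 23.0% (264, 260 and 274 CPM), inside the range of single markers, and Asph at 51.7%, 50.5% and 63.1%, above it. Sln gave 0 UMIs in endocardial nuclei, and the limit of 3 UMIs that a count of 0 allows lies at 0.265, 0.353 and 0.501 CPM.

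**Figure D3:**
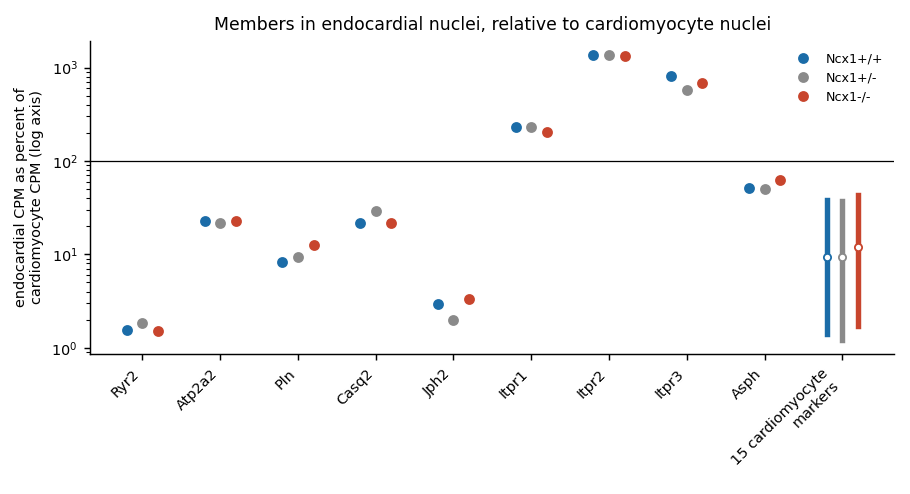
Endocardial CPM of each gene as a percent of its cardiomyocyte CPM in the same library (log axis), with the line at 100%; the bars at the right span the 15 cardiomyocyte markers and their open points mark the medians, 9.45%, 9.35% and 11.9%. The IP3 receptor genes lie above the line, Asph below it at 50.5% to 63.1%, and Ryr2 and Jph2 at the low end of the markers.

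In endocardial nuclei, 3 of 8 measured members were past the mark higher in Ncx1-/-, against 7.13% of 10973 measured genes, and 0 of 8 lower, against 4.13%. The 3 were Itpr3, Asph and Pln. In Ncx1+/- it was 0 of 8 higher, against 0.137%, and 1 of 8 lower, against 0.155%. That 1 was Jph2, at 7.59, 4.94 and 8.36 CPM from 178 UMIs, a level read as background above. The median log2 ratio of Ncx1-/- to wild type was 0.10 over the 8 members and 0.10 over all measured genes. The median log2 ratio to Ncx1+/- was 0.33 over the members and 0.08 over all measured genes. With the member genes kept in the clustering, Ryr2 and Jph2 were also past the mark, at ratios to wild type of 2.10 and 2.15.

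Itpr3 was higher in Ncx1-/- endocardial nuclei by 1.68 [1.43-1.97] against wild type and 1.86 [1.56-2.23] against Ncx1+/-. Asph lay at 122, 130 and 195 CPM, higher by 1.60 [1.48-1.73] and 1.5 [1.38-1.63], and Clvs1 on its other strand at 16.7, 25.3 and 33.8 CPM. Pln rests on 164 UMIs, at 5.03, 5.77 and 9.69 CPM, and its share of the cardiomyocyte level moved with that of the cardiomyocyte markers, given above. A free RNA share set by those markers was also subtracted, 9.45%, 9.35% and 11.9% of each gene's cardiomyocyte level. Pln, at 8.18%, 9.45% and 12.5% of that level, was then almost all taken away and no longer past the mark. Itpr3 and Asph were still past it, but Itpr3, at 580% to 815%, could hardly move. These outcomes followed from the levels, so the part of free RNA in the Pln and Itpr3 differences was not tested. Summed over the whole class, Itpr1 was lower in Ncx1-/-, at 0.853 [0.824-0.883] of wild type and 0.779 [0.752-0.807] of Ncx1+/-.

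The endocardial values also compare different nuclei. Of the 13 endocardial sub-clusters tabulated, 5 held at least 50 nuclei of each library. Ncx1-/- had the highest Itpr3 level in 5 of these 5, with ratios to wild type from 1.35 to 3.43 on 34 to 118 UMIs each. Asph ratios ran from 0.904 to 2.16, with the interval above 1 in 4 and below 1 in 0. Itpr1 ratios to wild type ran from 0.791 to 1.26, with the interval above 1 in 3 and below 1 in 1. The lower Itpr1 level of the class sum was thus not seen within most of these sub-clusters. Over the 5 together, Itpr3 remained past the mark at 1.68 [1.29-2.19], Asph was at 1.35 [1.19-1.52] and no longer past it, and Itpr1 was at 0.954 [0.903-1.01].

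Among the 13 sub-clusters Itpr1 ranged from 492 to 2157 CPM over the pooled libraries, lowest in the one led by Gja5, an arterial connexin gene, and Cyp26a1, and highest in the one led by Cemip and Adamts5. Asph was lowest where Itpr1 was highest, at 85.6 CPM, and highest, at 189 CPM, in the sub-cluster led by Grin2c and Ankrd37, which held 16, 149 and 739 nuclei. Itpr3 ranged from 20.8 to 51.0 CPM. A depth difference runs beside these values, since median UMIs of endocardial nuclei were 4801, 4018.5 and 3517.

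Cushion mesenchyme-like nuclei, which descend from endocardium, numbered 272, 178 and 58. Itpr1 was higher in Ncx1-/- there, at 319, 392 and 541 CPM, a ratio of 1.69 [1.35-2.11] to wild type and 1.38 [1.09-1.74] to Ncx1+/-. Itpr2 was lower, at 216, 207 and 131 CPM, with ratios of 0.607 [0.386-0.915] and 0.633 [0.396-0.973]. The last value of each rests on 58 nuclei. Other cells' markers moved beside these values: the 15 cardiomyocyte markers summed to 3409, 3990 and 6461 CPM there, or 16.9%, 18.6% and 28.8% of their cardiomyocyte sum with 0 at zero, and the 13 cushion markers to 1805, 1455 and 1166 CPM. Their part in the differences was not tested. Ryr2 lay at 214, 240 and 142 CPM, with ratios of 0.663 [0.429-0.986] and 0.592 [0.379-0.893]. At 2.55% to 4.21% of its cardiomyocyte level it is read as background. Itpr2 and Ryr2 were both past the mark lower. The share of all genes past it was not counted in this class, so nothing is read from these calls. Epicardial-like, erythroid-like and unnamed nuclei with cushion markers carried cardiomyocyte markers at 21% to 51.0% of the cardiomyocyte sum. The share was 33.7%, 44.8% and 33.6% in epicardial-like nuclei, where Ryr2 lay at 2589, 2252 and 2150 CPM, and 28.9%, 36.4% and 51.0% in erythroid-like nuclei, where Ryr2 lay at 241, 178 and 1189 CPM. In Ncx1+/- the share was above that of wild type in both classes and Ryr2 was below it. Epicardial-like nuclei numbered 189, 31 and 227 and erythroid-like nuclei 499, 469 and 96, so the epicardial-like Ncx1+/- values rest on few nuclei. With cardiomyocyte markers this high, Ryr2 in these classes is not read as expression.

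Member levels varied with gene length, though not in strict order, in part of the cardiomyocyte nuclei. In 2 sub-clusters, Gm15892, a predicted gene, was among the 3 leading genes, and these 1892 nuclei (757, 651 and 484), or 7.32% of cardiomyocyte nuclei, had a median of 1956 UMIs against 3652 in the others. They were singled out after their values were seen. Ryr2, whose gene spans 553.8 kb, was at 0.370 [0.362-0.378] of its level in the other cardiomyocyte nuclei, Itpr1 (338.0 kb) at 0.559 and Itpr2 (393.9 kb) at 0.561. Pln (8.32 kb) was at 1.03 [0.909-1.17] and Atp2a2 (48.7 kb) at 1.18 [1.15-1.21]. Jph2 and Asph were at 0.928 and 0.831. The reference mixes all chambers, while the pair is an unresolved and an atrial-like sub-cluster. The atrial-like one held Pln at 34.4 CPM over the pooled libraries, against 12.7 CPM in the largest atrial sub-cluster. Its Atp2a2 was at 1662 CPM, against 2035 CPM there. The part of the chamber mix in these ratios was not tested.

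All measured genes showed a run with span. Their median ratio was 1.5 for 3313 genes under 10 kb, 1.39 from 10 to 50 kb and 1.23 from 50 to 100 kb. It was 0.931 from 100 to 200 kb, 0.584 from 200 to 400 kb and 0.355 for 313 genes over 400 kb. Slc8a1 (365.3 kb) was at 0.227. The pair of sub-clusters differed in this. The unresolved one held Ryr2 at 951, Itpr1 at 139 and Asph at 207 CPM, and the atrial-like one held them at 4151, 378 and 251 CPM, against 5793, 409 and 269 CPM in the other cardiomyocyte nuclei. Against that reference of all chambers, the low ratios of the long genes were furthest from 1 in the unresolved sub-cluster. The largest atrial sub-cluster held Ryr2 at 8001, Itpr1 at 931 and Asph at 290 CPM. Against its own chamber the atrial-like one was thus further below for Ryr2 and Itpr1. Ratios between members of different length thus depend on which nuclei are counted. Without these nuclei, Itpr3 and Casq2 were again the 2 members past the mark in Ncx1-/- cardiomyocyte nuclei.

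**Figure D4:**
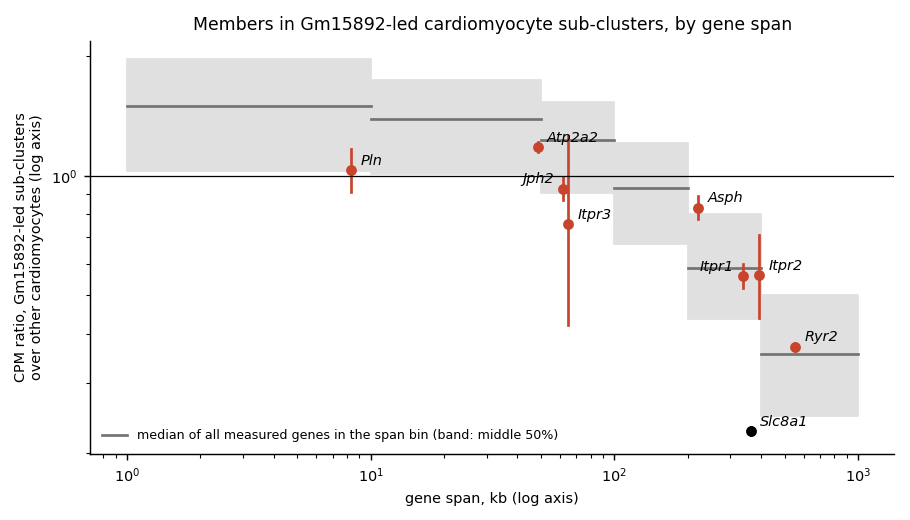
CPM of each gene in the 2 cardiomyocyte sub-clusters led by Gm15892 over CPM in the other cardiomyocyte nuclei (log axis) against gene span in kb (log axis), with exact 95% counting intervals; grey lines are medians of all measured genes by span and bands their middle 50%. Ryr2 at 0.370 lies beside the median of its span, and Pln at 1.03 below the 1.5 of short genes. The other cardiomyocyte nuclei mix all chambers, which differ in Pln.

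Of 66 other genes of store release, junctions, uptake, refilling, luminal buffering and IP3 signalling, 59 were found and 56 measured in cardiomyocyte nuclei. In Ncx1-/-, 4 were past the mark higher and 4 lower, and in Ncx1+/- 0, against the shares of all genes given above. The median log2 ratio to wild type was -0.06 over the 56, against -0.03 over all genes. The 4 higher were Grina, an IP3 receptor partner (4.54, 6.28 and 15.4 CPM), Bin1 of the transverse tubules (0.751, 0.814 and 1.53 CPM), S100a1, a calcium sensor that binds the ryanodine receptor (3.79, 3.97 and 7.57 CPM), and Jsrp1 of the junction (15.8, 17.8 and 28.9 CPM). Grina had the widest ratios, 3.40 [2.84-4.09] to wild type and 2.46 to Ncx1+/-. Bin1 rests on 102 UMIs in cardiomyocyte nuclei and lay far higher in endocardial nuclei, at 29.8, 39.7 and 83.1 CPM. The part of free endocardial RNA in its cardiomyocyte difference was not tested.

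The 4 lower were Ryr3, another ryanodine receptor gene (72.6, 68.7 and 44.8 CPM), Ppp1r3a, a phosphatase subunit (21.8, 19.6 and 11.4 CPM), the store calcium sensor Stim2 (55.2, 52.4 and 33.9 CPM) and Mrvi1, an IP3 receptor partner (25.6, 23.8 and 13.9 CPM). Ryr2 and Ryr3 thus differed in their ratios, 0.974 and 0.617. By group, 1 of 16 measured release genes was higher and 1 lower, 2 of 7 junction genes were higher, 1 of 5 uptake and 1 of 6 refilling genes were lower, and 1 of 4 IP3 receptor partners was higher and 1 lower. None of 9 luminal buffer and 9 IP3 supply genes was past the mark. The partners of Ryr2 with the most UMIs were close to level: Camk2d at 860, 886 and 887 CPM and Trdn, the gene of triadin, at 476, 475 and 435 CPM. Stim1 lay at 56.4, 52.0 and 41.7 CPM and Plcb4, which makes IP3, at 259, 246 and 204 CPM. Hsp90b1, a chaperone of the store lumen, lay at 293, 347 and 333 CPM.

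**Figure D5:**
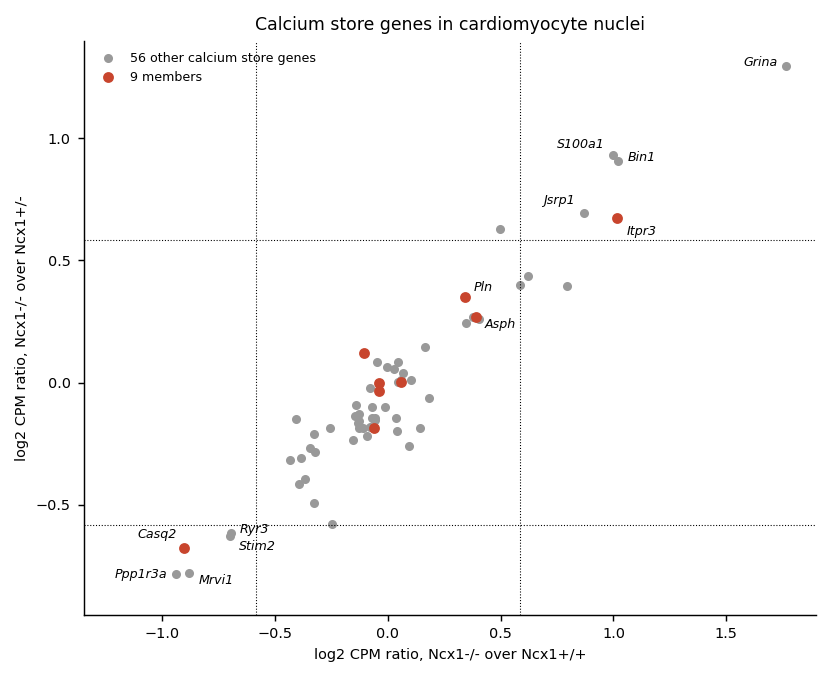
Log2 CPM ratio of Ncx1-/- to Ncx1+/+ (x) and to Ncx1+/- (y) in cardiomyocyte nuclei for 9 members (red) and 56 other calcium store genes (grey), with dotted lines at 1.5-fold; both axes share the Ncx1-/- library, so points near the diagonal are no second measurement. Most points lie inside the lines, with Itpr3, Grina, Bin1, S100a1 and Jsrp1 beyond them at the upper right and Casq2, Ryr3, Stim2, Ppp1r3a and Mrvi1 at the lower left.

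The genes whose levels ran most like each member over 33 sums of class or chamber and library show where the members sit. These sums share libraries and depth, and Pearson's r of log2(CPM + 1) is a description. Jph2 ran with Mylk3 (r = 0.990), Ldb3 (0.988) and Cacna1h (0.987), and Pln with Myl2 (0.975), Lgi2 (0.890) and Kcng2 (0.889). Ryr2 ran with Slc16a12 (0.981), Palm2 (0.979) and Cacna1c (0.979), and Atp2a2 with Tecrl (0.955), Fbxo32 (0.953) and Myh6 (0.951). Ldb3, Myl2 and Myh6, sarcomere genes, are among the markers that named the nuclei, and Cacna1c encodes the calcium channel of the cell membrane that faces the ryanodine receptor. Itpr2 ran with Ksr1 (0.947), Ptprm (0.946) and Shroom4 (0.93), and Itpr3 with Mdfi (0.898), Litaf (0.896) and Prrg1 (0.882). Asph ran with Galnt11 (0.955), Tet1 (0.954) and Srpk2 (0.95). Itpr1 and Casq2 had less close neighbours, Xiap (0.822) and Fut2 (0.759) first.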

How the data were processed

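Nuclei of sorted, frozen hearts were sequenced as 10x Genomics version 3.1 libraries on a NovaSeq, per the labels. The authors deposited whole-number UMI counts per gene and barcode without normalisation, made with Cell Ranger 6.1.0 and build mm10 per the submitters' processing notes. The sources used here do not say whether introns or strand were counted. Genes of the set and the lists were chosen with earlier results of these data known.

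Barcodes needed at least 500 genes, with no more than 5% of UMIs mitochondrial. Doublets were scored by Scrublet's method with exact neighbours. Its automatic threshold called 7.25%, 7.14% and 0.00811% of nuclei, so the top 8% of scores per library were removed instead. Nuclei were clustered without the member genes on 2000 variable genes, 30 principal components and 15 exact nearest neighbours by the Leiden method (igraph 0.11.9, resolution 1), with no correction between libraries. Doublet scoring and clustering were rewritten after results had been seen, so that they give the same clusters on any processor. Since small changes moved the borders of chambers, 5 other random starts were added then, making 6. Clusters were named "-like" from fixed markers. Clusters other than cardiomyocyte and endocardial led by another list's markers stayed unnamed, a rule added after the data were seen.

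Raw counts were summed per class and library. Ratios carry exact conditional binomial and levels exact Poisson intervals at 95%, for counting error only. Every member was named, as were other store genes past the mark and the 2 with the most UMIs in a group (the main ones in the text). Casq1 was named beside Casq2 as the other calsequestrin gene. For each member the 3 genes most alike were taken. The rule was tested on simulated data. Alternatives were scaling by TMM or median-of-ratios factors, 1000 genes per nucleus, no doublet filter, resolution 2, members kept in the clustering, nucleus-by-nucleus gates, 2 other folds, no UMI minimum, equal chamber weight and free RNA subtracted. Leaving out the Gm15892-led sub-clusters, Malat1 or the unshared endocardial sub-clusters, and the other starts, were chosen after seeing the data. Coordinates are from GENCODE M21, which holds 98.7% of the gene identifiers.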

Additional observations from a re-analysis of the deposited data

Results flagged for a closer look

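The Ryr2 ratio of Ncx1-/- to wild type pointed in different directions by chamber. It was 1.19 in atrioventricular canal nuclei and 0.861 in atrial, 0.782 in outflow tract, 0.899 in ventricular wall and 0.840 in trabecular nuclei, each with a counting interval clear of 1. With 1 library per genotype the difference between chambers was not tested. Over 6 starts of the clustering the atrioventricular canal ratio was above 1 in 6, and the trabecular one in 1.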

How the results depend on the processing

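The cause of each change below was not tested. In Ncx1-/- cardiomyocyte nuclei the 2 members past the mark, Itpr3 and Casq2, were past it under 14 of 18 alternatives and joined by Pln at a lower fold (3 in all). The count was 1 (Itpr3) without the doublet filter and at equal chamber weight, and 0 at a fold of 2. In Ncx1+/- it was 0 under all 18. In endocardial nuclei the count of 3 was 5 with members kept in the clustering (Ryr2 and Jph2 added), 1 (Itpr3) with nucleus-by-nucleus gates and in the sub-clusters shared by all libraries, and 0 at a fold of 2. Asph was lost under TMM and median-of-ratios factors and at resolution 2, which left 2. These factors moved every endocardial log2 ratio of Ncx1-/- to wild type by -0.13 and -0.13. The 8 other store genes became 1 at a fold of 2 (Grina) and 14 at the lower fold.

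The middle of the 9 cardiomyocyte ratios of Ncx1-/- to wild type, 0.974, was 1.00 under TMM and 0.999 under median-of-ratios factors, 1.01 with gates, 0.941 at equal chamber weight and 1.02 without Malat1. The middle ratio of atrial to ventricular wall, 1.11 over the pooled libraries, was 1.24, 1.2 and 1.02 in Ncx1+/+, Ncx1+/- and Ncx1-/- alone, and 1.06 with gates. Of 99 atrial to ventricular wall ratios, 38 moved out of their counting interval, and of 169 ratios of Ncx1-/- to wild type over whole classes also 38, with 3 and 3 more than 1.5-fold from the reported value. No ratio past 1.5-fold changed sides of 1, but ratios nearer 1 did: in cardiomyocyte nuclei Ryr2 and Jph2 were at 1.02 without Malat1 and Atp2a2 at 0.941 at equal chamber weight. The atrial to ventricular wall ratio of Casq2 was 1.44, 0.458 and 0.108 in the 3 libraries alone. Over the 6 starts the trabecular ratio of Ncx1-/- to wild type lay on both sides of 1 for Ryr2 (0.840 to 1.02), Atp2a2 (0.910 to 1.01), Pln (0.872 to 1.29), Casq2 (0.596 to 1.35), Jph2 (0.925 to 1.02) and Itpr2 (0.919 to 1.05), and the ventricular wall ratio for Itpr1 (0.976 to 1.03) and Itpr2 (0.972 to 1.05). In cardiomyocyte nuclei the ratio ran from 1.91 to 2.26 for Itpr3, 1.27 to 1.37 for Asph, 1.12 to 1.32 for Pln and 0.506 to 0.569 for Casq2. Depth limits Sln, Casq2 and endocardial Pln, which have too few UMIs for narrow intervals. No paired analysis was possible because each genotype has 1 library.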
